A study of Homo sapiens with 6 samples.

Results

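The transcriptomes of DU145 cells labelled RCC2 KO and CD24 KO were compared directly with each other. All genes with a value of at least 1 FPKM in either of these 2 columns of the deposited table entered the comparison, 12692 of 27381 genes. FPKM is the number of sequenced fragments of a gene corrected for the length of its transcripts and for how many fragments of the library were mapped. DU145 is a human metastatic castration-resistant prostate cancer cell line. The study sequenced 6 libraries of it, 2 each labelled as scrambled control, CD24 KO and RCC2 KO, and the scrambled control was not used here. Per the study's methods, each knockout was made with Cas9, GFP and a pair of sgRNAs on the plasmid pX458, so that all groups share the transfection with Cas9, and GFP-positive cells were sorted and expanded as clones. No drug treatment is named for these cells. A knockout line is thus derived from few cells, and differences between clones cannot be told apart from the knockout.

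CD24 is a small glycoprotein anchored in the outer cell membrane that is common on epithelial tumours. RCC2, also called TD-60, binds the inner centromere during mitosis with the chromosomal passenger complex, and outside mitosis it takes part in the regulation of small GTPases such as RAC1. The study placed both proteins on the Wnt pathway, in which free β-catenin escapes a destruction complex of APC and AXIN and drives transcription in the nucleus.

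The table gives 1 value per gene and condition and no separate values for the libraries. The RCC2 KO column bears a name that 1 of its libraries has as its full label, and it may hold 1 library or both. No difference below therefore has a replicate check, an SD or a test, and a gene is counted when it passed a 2-fold minimum, a difference of at least 1 in log2(FPKM + 1) between the columns. Differences are given as RCC2 KO minus CD24 KO on this scale, which understates the difference of genes with low values. The table holds no counts, and the depth behind each value is unknown. The values sum to 388764 FPKM in the CD24 KO column and 447005 FPKM in the RCC2 KO column. Just inside the filter was TMED10P1, at 0.929 FPKM in the CD24 KO column and 1.00016 FPKM in the RCC2 KO column. CCDC150, at 0.591 and 0.999927 FPKM, lay just outside it. A compared gene with under 1 FPKM in 1 column passed the filter through the other column only.

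The RNA of the targeted genes ran against the labels. In the column labelled CD24 KO, CD24 was at 309 FPKM, above the 214 FPKM in the column labelled RCC2 KO, a log2 difference of -0.53. RCC2 was at 14.2 FPKM in the column labelled CD24 KO and at 41.8 FPKM in the column labelled RCC2 KO, a log2 difference of 1.5. Each RNA was thus higher in the column that carries the name of its knockout, and every direction in the following text rests on the labels as given. These values do not measure protein. The table places RCC2 at chr1:17733251-17766250 and CD24 at chrY:21034387-21438350 in coordinates read as hg19. The stretch on chromosome Y is a copy of CD24, so fragments may have been divided between copies.

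Epithelial markers were high in both columns. KRT8 was at 149 and 348 FPKM in the CD24 KO and RCC2 KO columns, KRT18 at 141 and 305 FPKM, and EPCAM at 44.9 and 58.6 FPKM. Of 9 epithelial markers, 8 were compared, and the basal keratin KRT5 was listed at 0 in both columns. None of the 8 fibroblast, 5 endothelial or 5 erythroid markers reached 1 FPKM in either column. Of the lymphocyte markers 1 of 8 was compared, CD79A, and of the macrophage markers 1 of 7, the lysosomal glycoprotein CD68, at 81.5 and 38.4 FPKM. The other 7 lymphocyte markers, among them PTPRC and CD3E, were listed at 0 in both columns. KLK3, the gene of prostate-specific antigen, was listed at 0 in both columns as well.

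Across the genes compared, the columns differed in both directions. At least 2-fold higher in the RCC2 KO column were 515 genes (4.06% of those compared), while 551 (4.34%) were lower by 2-fold or more. Together these made up 8.4%. The median log2 difference was 0.018, with 51.7% of genes higher in the RCC2 KO column, and the SD across genes was 0.67. At a 4-fold minimum, 38 genes were higher and 44 lower. Of the genes past the 2-fold minimum, 476 of those higher and 451 of those lower had a protein-coding symbol. The direction moved with the level of the gene. Among 2508 genes with a mean under 3 FPKM over both columns, 36 were at least 2-fold higher in the RCC2 KO column and 190 lower, and their median log2 difference was -0.25. Among 688 genes with a mean of at least 100 FPKM, 58 were higher and 24 lower, and the median was 0.22. Counts for lists of highly expressed genes are to be read beside these medians, and the part of the level in the differences was not tested. Counts of list members past the 2-fold minimum are to be read beside 4.06% higher and 4.34% lower over all genes.

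**Figure D1:**
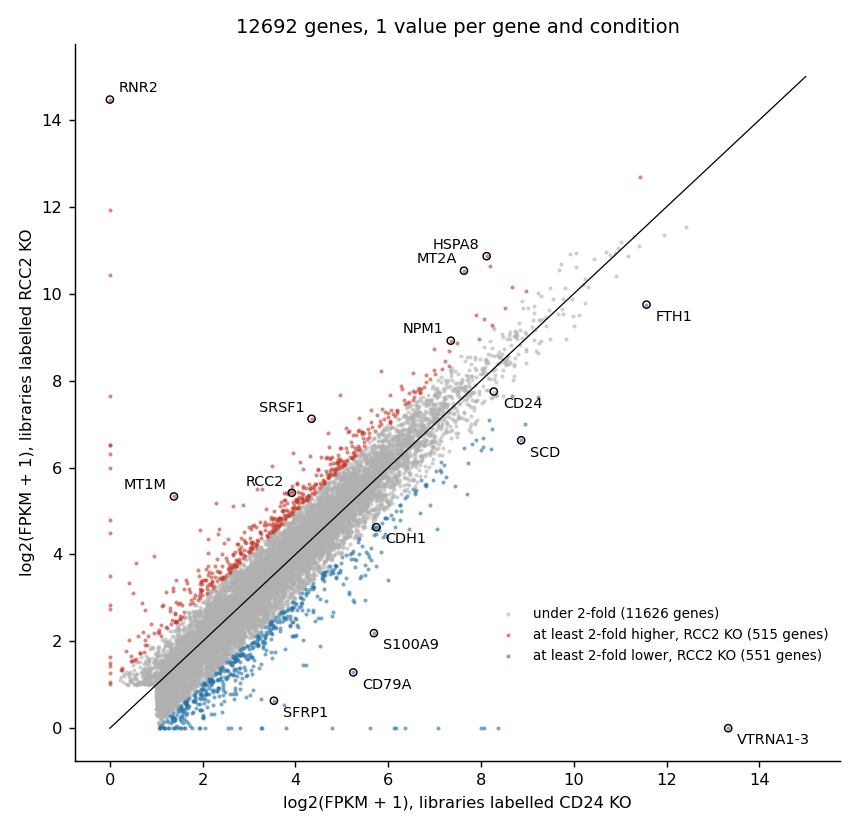
Level of 12692 genes as log2(FPKM + 1) in the column labelled CD24 KO (horizontal axis) against the column labelled RCC2 KO (vertical axis), with 1 point per gene and the line of equal values. The 515 red genes lie at least 2-fold above the line and the 551 blue genes at least 2-fold below it. Points at 0 on the vertical scale are listed at 0 in the RCC2 KO column. Points at 0 on the horizontal scale are listed at 0 in the CD24 KO column.

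**Figure D2:**
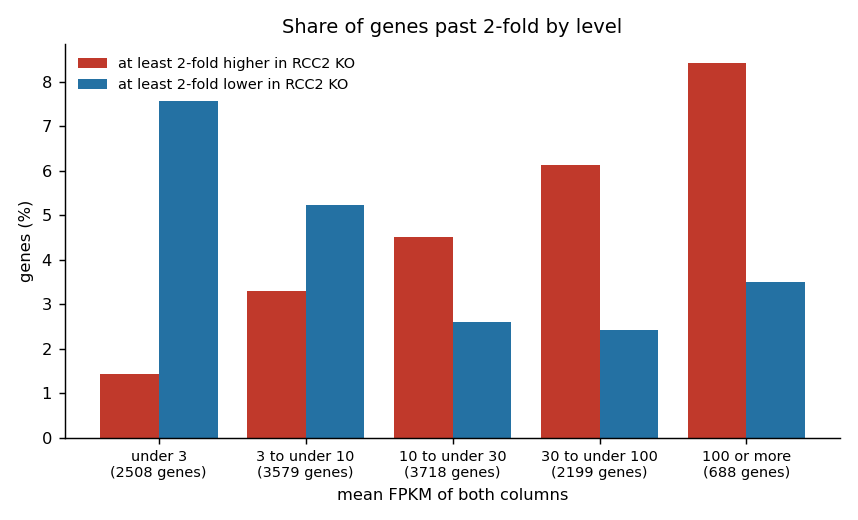
Share of genes (vertical axis, %) at least 2-fold higher (red) or lower (blue) in the RCC2 KO column, in 5 classes of the mean FPKM of both columns (horizontal axis). The share of higher genes goes from 1.44% under 3 FPKM to 8.43% at 100 FPKM or more, and the share of lower genes from 7.58% to 3.49%.

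The protein-coding genes that were highest in the RCC2 KO column relative to the CD24 KO column included metallothioneins, splicing factors and a constitutive chaperone. MT1M, a metallothionein, was at 1.60 FPKM in the CD24 KO column and 39.4 FPKM in the RCC2 KO column, a log2 difference of 3.95. EDN2, which encodes the vasoactive peptide endothelin 2, was at 0.939 and 14.6 FPKM, a difference of 3.01. The calcium-binding protein gene S100A2 was at 3.91 and 35.1 FPKM (2.88). These 3 genes were under 4 FPKM in the CD24 KO column and above 10 FPKM in the RCC2 KO column. The splicing activator SRSF1 went from 19.4 FPKM in the CD24 KO column to 138 FPKM in the RCC2 KO column (2.77). SRSF2, of the same family, was at 30.03 and 204 FPKM (2.72), at a position it shares with MFSD11. Both splicing factor genes were over 4-fold higher in the RCC2 KO column. HSPA8, the constitutive HSC70 chaperone, stood at 278 and 1864 FPKM (2.74). WDR77, a partner of the arginine methyltransferase PRMT5, stood at 5.26 and 33.8 FPKM (2.48). IGFBP3, a secreted protein that binds insulin-like growth factors, was measured at 14.3 and 79.7 FPKM (2.40). The same ranking by log2 difference held MT2A, MT1E, TC2N (2.36), the cytokine gene CLCF1 (2.26) and SNX15 (3.24). SNX15 overlaps ARL2 and the read-through gene ARL2-SNX15, and CLCF1 overlaps POLD4, so the division of fragments in these 2 places is uncertain.

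The lowest protein-coding genes in the RCC2 KO column included immune signalling, secreted and lipid genes. CD79A, a chain of the B-cell receptor complex, was at 37 FPKM in the CD24 KO column and 1.44 FPKM in the RCC2 KO column, a log2 difference of -3.96. S100A9, a subunit of calprotectin, was at 50.7 and 3.56 FPKM (-3.50). MFAP2, a component of elastic microfibrils, was at 12.5 and 0.447 FPKM (-3.22). All 3 passed 10-fold in the linear ratio of the columns, as did SFRP1 and C1S. SFRP1, a secreted antagonist of Wnt ligands, was at 10.6 and 0.550 FPKM (-2.90). C1S, the serine protease of the first complement component, stood at 17.8 and 1.75 FPKM (-2.78). The chemokine gene CCL5 stood at 22 and 2.68 FPKM (-2.64). These 3 genes of secreted proteins were all under 3 FPKM in the RCC2 KO column. AQP3, a channel for water and glycerol, was much more abundant, with 208 and 40.8 FPKM (-2.32). SLPI, an inhibitor of leukocyte proteases, was at 132 and 23.1 FPKM (-2.47). CD74, the invariant chain of MHC class II, was at 26.5 and 4.98 FPKM (-2.20). The remaining genes of this ranking were AKR1C1, AKR1C3, NUPR1, ACSS2, NR4A1 and SCD, which are described with their groups.

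**Figure D3:**
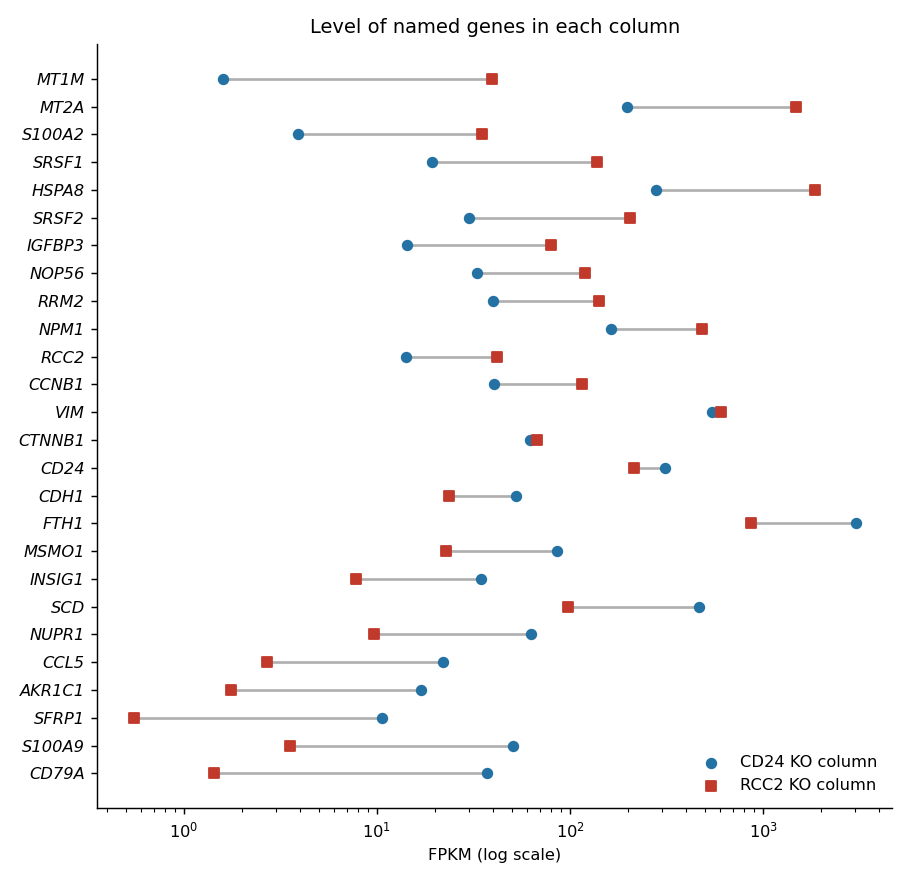
FPKM (horizontal axis, log scale) of 26 named genes in the column labelled CD24 KO (blue circles) and the column labelled RCC2 KO (red squares), ordered by log2 difference, with 1 value per gene and column. The pairs are farthest apart for MT1M at the top and CD79A at the bottom, and the symbols of VIM and CTNNB1 nearly coincide.

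Genes of cell division were higher in the RCC2 KO column almost without exception. All 19 replication licensing genes, which load and start the helicase at replication origins, were higher, 12 of them at least 2-fold, with a median log2 difference of 1.06 against 0.018 over all genes. MCM10 was at 7.05 FPKM in the CD24 KO column and 23.9 FPKM in the RCC2 KO column (1.63). MCM3, a subunit of the replicative helicase, was at 39.6 and 114 FPKM (1.51), and ORC6, of the origin recognition complex, at 7.60 and 24.6 FPKM (1.57). The lowest member was the kinase gene CDC7, at 26.1 and 30.8 FPKM (0.23). Of 26 DNA synthesis genes, 25 were higher and 1 lower (POLD3, -0.13), 8 were at least 2-fold higher, and the median was 0.85. RRM2, the regulated subunit of ribonucleotide reductase, was at 40.1 and 141 FPKM (1.79). TYMS, thymidylate synthase, was at 55.5 and 133 FPKM (1.24), and PCNA, the sliding clamp, at 61.5 and 122 FPKM (0.98). In bulk RNA, more cells in a cycle phase and more RNA per cell cannot be told apart.

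Mitotic genes showed the same direction. Among 53 compared G2/M and mitosis genes, 52 were higher in the RCC2 KO column and NEK2 alone was lower (-0.06), 16 were at least 2-fold higher, and the median log2 difference was 0.83. CCNB1, the cyclin of CDK1 at mitotic entry, was at 40.4 FPKM in the CD24 KO column and 115 FPKM in the RCC2 KO column (1.49). The spindle checkpoint gene MAD2L1 was at 12.6 and 37.3 FPKM (1.5). PLK1, a mitotic kinase, was at 33.2 and 86.3 FPKM (1.35), and CDC20, an activator of the anaphase-promoting complex, at 27.1 and 68 FPKM (1.30). The most abundant members moved less, with PTTG1 at 233 and 373 FPKM (0.68) and TOP2A at 129 and 176 FPKM (0.44). All 16 genes of a list of RCC2, its partners at the centromere and in GTPase signaling, and the Ran system were higher, 8 of them at least 2-fold, with a median of 0.98. This list shares its chromosomal passenger genes with the mitotic list. With quantile normalization, 48 of the 53 mitotic genes were higher, 9 of them at least 2-fold, and 14 of the 16 genes of the RCC2 list. The chromosomal passenger genes AURKB (29.2 and 66.7 FPKM, 1.16), BIRC5 (29.9 and 72.7 FPKM, 1.25) and CDCA8 (1.22) passed the 2-fold minimum, and INCENP (0.77) did not. RAC1 was at 137 and 139 FPKM (0.02), and RHOA at 311 and 377 FPKM (0.28).

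Because mitotic genes moved together, the upstream sequences of CCNB1, CDC20 and PLK1 are shown. These genes are classic carriers of CCAAT boxes, bound by NF-Y, and of the cell cycle genes homology region (CHR), bound by the DREAM and MuvB complexes. The 250 bases before each start, from RefSeq (GRCh38.p14, all on the plus strand, 5′ to 3′), were searched on both strands for CCAAT and for the CHR letters TTTGAA or TTTAAA, the latter of which is its own reverse complement. CCAAT and CHR matches did not overlap in the windows shown. Capitals mark the matches. The windows are chr5:69166900-69167149 for CCNB1, chr1:43358731-43358980 for CDC20 and chr16:23678639-23678888 for PLK1.
CCNB1: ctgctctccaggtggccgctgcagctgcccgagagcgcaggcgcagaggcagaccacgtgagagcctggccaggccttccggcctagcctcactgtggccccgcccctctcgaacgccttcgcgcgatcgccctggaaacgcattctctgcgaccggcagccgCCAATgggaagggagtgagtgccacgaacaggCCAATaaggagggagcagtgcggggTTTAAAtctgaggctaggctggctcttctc
CDC20: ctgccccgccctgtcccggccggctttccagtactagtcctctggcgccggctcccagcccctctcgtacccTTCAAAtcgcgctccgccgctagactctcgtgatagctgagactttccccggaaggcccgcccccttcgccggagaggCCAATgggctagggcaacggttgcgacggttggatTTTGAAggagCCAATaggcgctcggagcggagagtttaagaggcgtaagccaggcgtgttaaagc
PLK1: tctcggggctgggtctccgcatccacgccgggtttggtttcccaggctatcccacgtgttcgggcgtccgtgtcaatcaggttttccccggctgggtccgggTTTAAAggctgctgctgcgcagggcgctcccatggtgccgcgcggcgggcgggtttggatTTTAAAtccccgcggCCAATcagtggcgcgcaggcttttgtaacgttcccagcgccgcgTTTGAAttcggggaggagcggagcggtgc
CCNB1 held 2 CCAAT boxes and 1 CHR match, CDC20 held 2 and 2, and PLK1 held 1 and 3. For 46 of the 53 mitotic genes compared, RefSeq gave 58 windows, of which 74.1% held CCAAT and 58.6% a CHR match. Over all 35116 windows of this length the shares were 32% and 21.9%. A match is a description of the letters and not a measured site.

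Repair, G1 and arrest genes were mixed by role. Of 27 genes of homologous recombination and the Fanconi pathway, 26 were higher in the RCC2 KO column, 5 at least 2-fold, with a median of 0.65. XRCC2, of the recombinase paralogs, was at 3.21 FPKM in the CD24 KO column and 11.7 FPKM in the RCC2 KO column (1.59), and RAD51C, a paralog of the same group, at 28.7 and 30.9 FPKM (0.10). Of 22 G1 cyclin, E2F and MYC network genes, 16 were higher and 6 lower (median 0.50). The phosphatase gene CDC25A was at 2.11 and 9.58 FPKM (1.77), E2F8 at 3.56 and 10.1 FPKM (1.29), and SKP2, which marks p27 for degradation, passed the 2-fold minimum with 1.24. MXI1, an antagonist of MYC, was at 28.2 and 12.3 FPKM (-1.14), while MYC was at 94.1 and 72.4 FPKM (-0.37). In a list of 18 CDK inhibitors, damage-induced arrest genes and NPM1, 9 were higher and the median was -0.01. NPM1 alone was at least 2-fold higher, and 4 were at least 2-fold lower, as were 4.34% of all genes compared. With quantile normalization 7 of the 18 were higher. TP53INP1 was at 8.63 and 1.77 FPKM (-1.80) and GADD45A, a stress-induced arrest gene, at 75.4 and 26.9 FPKM (-1.45). The inhibitor genes CDKN1C (2.99 and 0.244 FPKM, -1.68) and CDKN2B (-1.30) were also at least 2-fold lower. The nucleolar partner of ARF, NPM1, stood at 162 and 483 FPKM (1.57), while CDKN2A, the gene of ARF and p16, stood at 139.7 and 104 FPKM (-0.43). Replication-dependent histone genes ran against the replication genes. Of 21 compared of 62 in the table, 19 were lower in the RCC2 KO column and 2 higher (median -0.48). HIST2H2BE was at 48.9 and 16.6 FPKM (-1.50) and HIST1H2AC at 67.6 and 27.1 FPKM (-1.29), while the most abundant member, HIST1H2BK, was at 358 and 421 FPKM (0.23). Most histone transcripts lack a poly(A) tail, and the labels and the methods differ on whether the kit selected mRNA.

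**Figure D4:**
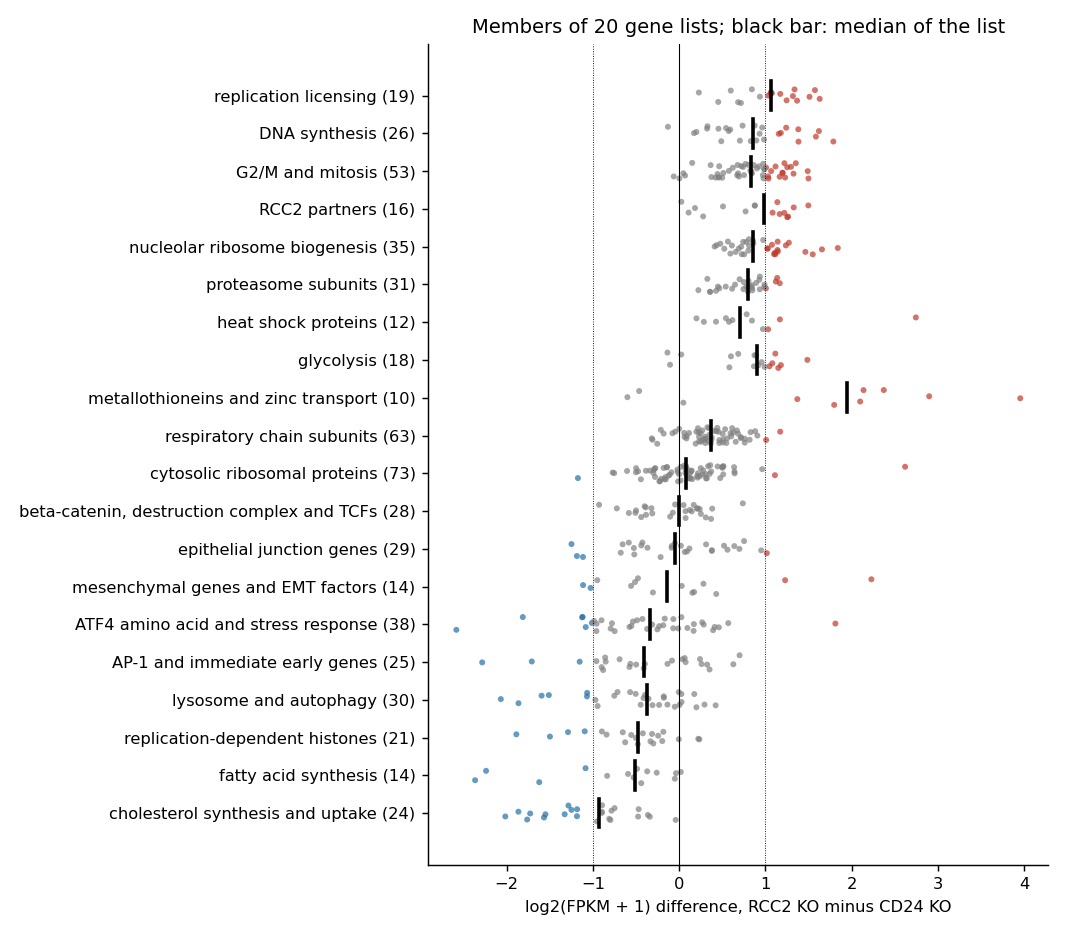
Differences in log2(FPKM + 1), RCC2 KO minus CD24 KO (horizontal axis), for the compared members of 20 gene lists (rows, number of members in brackets), with 1 point per gene, the median as a black bar and the 2-fold minimum as dotted lines. Median differences run from 1.95 for metallothioneins and zinc transport to -0.93 for cholesterol synthesis and uptake.

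Ribosome biogenesis, proteasome and heat shock genes were higher in the RCC2 KO column, while ribosomal proteins, ER chaperones and aminoacyl-tRNA synthetases divided. All 35 nucleolar ribosome biogenesis genes were higher, 15 of them at least 2-fold (median 0.86). NOP56, a core protein of box C/D snoRNPs, was at 32.9 FPKM in the CD24 KO column and 120.0 FPKM in the RCC2 KO column (1.84), at a position that also holds snoRNA genes. NCL, nucleolin, was at 368 and 814 FPKM (1.14). By contrast, 42 of 73 cytosolic ribosomal protein genes were higher and 31 lower, with a median of 0.08 that became -0.15 with quantile normalization. RPS25, for example, was at 2715 and 2206 FPKM (-0.30). Many ribosomal protein genes have processed pseudogenes that could take up fragments. All 31 proteasome subunits were higher, 4 at least 2-fold, with a median of 0.80. PSMC3 was at 37.9 and 86.4 FPKM (1.17) and PSMB4 at 190.0 and 377 FPKM (0.99). All 12 compared cytosolic and mitochondrial heat shock genes were higher (median 0.70), with HSPA8 far ahead of HSPH1 (14.7 and 34.2 FPKM, 1.17) and HSPD1 (102 and 209 FPKM, 1.03). With quantile normalization the directions held for all nucleolar and proteasome genes and for 11 of 12 heat shock genes, and 10 nucleolar and 1 proteasome genes passed the 2-fold minimum. ER chaperones, with 11 of 21 higher, had a median of 0.01, and cytosolic aminoacyl-tRNA synthetases, with 11 of 19 higher, one of 0.14 that turned to -0.066 with quantile normalization. Without that normalization neither list had a member past the 2-fold minimum, which 8.4% of all genes compared passed. Quantile normalization lowered the ER chaperones to 5 of 21 higher.

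Energy metabolism leaned the same way. Of 18 glycolysis genes, 16 were higher in the RCC2 KO column and 6 passed the 2-fold minimum (median 0.90). The glucose transporter gene SLC2A1 was at 25.8 FPKM in the CD24 KO column and 74 FPKM in the RCC2 KO column (1.49). GAPDH, often used as a reference gene, was at 969 and 1927 FPKM (0.99), and ALDOA, an aldolase, at 503 and 1065 FPKM (1.08). With quantile normalization 15 glycolysis genes were higher and 3 passed the minimum. Of 20 hypoxia genes outside the core pathway, 12 were higher and 8 lower (median 0.24). ANGPTL4, a secreted inhibitor of lipoprotein lipase, was at 3.33 and 19.6 FPKM (2.25), PLOD2, a collagen lysyl hydroxylase, at 177 and 468 FPKM (1.40), and VEGFA at 120.4 and 80.4 FPKM (-0.58). Subunits of the respiratory chain were higher for 55 of 63 genes, with a median of 0.37. The 2 past the 2-fold minimum were COX8A (1.17) and NDUFB2 (1.01), beside 4.06% of all genes compared. With quantile normalization 47 were higher, none passed the minimum and the median was 0.22. Of the mitochondrially encoded genes only the ribosomal RNAs were in the table. RNR1 was at 3948 and 2615 FPKM (-0.59), and RNR2 was listed at 0 in the CD24 KO column and at 22704 FPKM in the RCC2 KO column, 5.08% of that column's sum.

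Lipid synthesis genes were lower in the RCC2 KO column as a group. SREBP-2 is the main activator of cholesterol synthesis and uptake genes, and SREBP-1 of fatty acid synthesis genes. All 24 compared cholesterol genes were lower, 11 of them at least 2-fold, with a median log2 difference of -0.93. INSIG1, which holds the SREBP complex in the ER, was at 34.7 FPKM in the CD24 KO column and 7.83 FPKM in the RCC2 KO column (-2.02). MSMO1, a sterol C4 oxidase, was at 85.9 and 22.9 FPKM (-1.86), and SQLE, squalene epoxidase, at 118 and 34.2 FPKM (-1.76). The early steps had the same direction. IDI1 was at 101 and 29.9 FPKM (-1.73), and HMGCS1 at 62 and 20.3 FPKM (-1.57). Fatty acid synthesis genes were lower for 13 of 14 genes, 4 at least 2-fold (median -0.51). SCD, the stearoyl-CoA desaturase, was at 466 and 97.9 FPKM (-2.24). ACSS2, an acetyl-CoA synthetase, was at 37.5 and 6.47 FPKM (-2.37), and FADS2, a fatty acid desaturase, at 210.2 and 67.5 FPKM (-1.62). FASN, the fatty acid synthase itself, was at 51 and 28.2 FPKM (-0.84).

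Lysosomal and stress genes were lower as well, though less uniformly. Of 30 lysosome and autophagy genes, 23 were lower in the RCC2 KO column and 6 at least 2-fold lower (median -0.38). The protease gene CTSB was at 598 FPKM in the CD24 KO column and 197 FPKM in the RCC2 KO column (-1.60), and NPC1, a cholesterol exporter of the lysosome, at 145 and 50.1 FPKM (-1.51). WIPI1, an autophagosome protein, was at 14.9 and 3.37 FPKM (-1.86). The list also counts TXNIP, an inhibitor of thioredoxin, and its family member ARRDC4 (-1.07), which are not core lysosome or autophagy genes. Both are among the 6 at least 2-fold lower. TXNIP had the lowest difference of the list, at 34.7 and 7.52 FPKM (-2.07), but the table gives it a position that overlaps 26 other genes. Of 38 genes of the ATF4 amino acid and stress response, 27 were lower and 11 higher (median -0.34). NUPR1, a stress-induced chromatin protein, was at 63 and 9.67 FPKM (-2.58). DDIT3, the gene of CHOP, was at 61.5 and 27.7 FPKM (-1.13), at a position that overlaps 5 other genes. ATF4 itself was at 214 and 172 FPKM (-0.31), and ATF5, at 4.80 and 19.3 FPKM (1.81), ran against the list. Of 25 AP-1 and immediate early genes, 16 were lower (median -0.41). The nuclear receptor gene NR4A1 was at 37 and 6.79 FPKM (-2.28), NR4A2 at 10.03 and 2.37 FPKM (-1.71), and FOSL1, the most abundant of the list, at 134 and 208 FPKM (0.63).

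Targets of NRF2, the main activator of antioxidant genes, divided. Of 23 genes, 15 were lower in the RCC2 KO column and 8 higher (median -0.13), and the 6 at least 2-fold lower included the aldo-keto reductases. AKR1C1 was at 17 FPKM in the CD24 KO column and 1.76 FPKM in the RCC2 KO column (-2.70), and AKR1C3 at 43.9 and 6.79 FPKM (-2.53). The AKR1C genes are near-identical neighbours on chromosome 10, and fragments may have been divided among them. FTH1, the ferritin heavy chain, was at 3036 and 860.0 FPKM (-1.82) and FTL, the light chain, at 5458 and 2972 FPKM (-0.88). The classic target NQO1 was at 577 and 570.2 FPKM (-0.02), and HMOX1, heme oxygenase, at 32.3 and 64.6 FPKM (0.98).

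Metallothioneins, small cysteine-rich proteins that bind zinc and copper, had the highest median of the 43 lists with at least 3 genes compared. Without the filter, when members under 1 FPKM in both columns entered, their median was 0.67 and 7 lists were higher. Of 10 compared genes of metallothioneins and zinc transport, 8 were higher in the RCC2 KO column and 7 at least 2-fold, with a median of 1.95. These 7 were the metallothionein genes in the cluster on chromosome 16 that reached 1 FPKM. MT1B, MT1G and MT1H were listed at 0 in both columns, and MT3 was at 0 and 0.589 FPKM. MT2A, at chr16:56642478-56643409 (hg19), was at 198 FPKM in the CD24 KO column and 1479 FPKM in the RCC2 KO column (2.90). MT1E was at 56.4 and 296 FPKM (2.37), MT1X at 24.9 and 109.9 FPKM (2.10), and MT1F at 4.0 and 21 FPKM (2.14). MT1A (1.80) and the pseudogene MT1L (1.37) had the same direction. Their sequences are alike, and the share of fragments given to each is uncertain. MTF1, the zinc-sensing factor of these genes, was at 4.76 and 4.96 FPKM (0.05), and the zinc exporter gene SLC30A1 at 7.69 and 4.73 FPKM (-0.60).

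Since the compared metallothionein genes moved together, the 250 bases before the starts of MT2A (chr16:56608334-56608583) and MT1X (chr16:56682220-56682469) are shown. They are from RefSeq in GRCh38.p14, plus strand, 5′ to 3′. Capitals mark the core letters of metal response elements, TGCACNC or TGCGCNC on either strand, which MTF1 is known to bind. The matches did not overlap in the windows shown. No window was available for MT1M, MT1E, MT1F, MT1A and MT1L, which are named only.
MT2A: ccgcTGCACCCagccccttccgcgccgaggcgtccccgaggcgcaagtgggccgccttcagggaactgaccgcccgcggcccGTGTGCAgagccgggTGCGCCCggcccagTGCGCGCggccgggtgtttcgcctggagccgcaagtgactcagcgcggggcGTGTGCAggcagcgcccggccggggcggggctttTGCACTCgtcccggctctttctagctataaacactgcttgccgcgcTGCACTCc
MT1X: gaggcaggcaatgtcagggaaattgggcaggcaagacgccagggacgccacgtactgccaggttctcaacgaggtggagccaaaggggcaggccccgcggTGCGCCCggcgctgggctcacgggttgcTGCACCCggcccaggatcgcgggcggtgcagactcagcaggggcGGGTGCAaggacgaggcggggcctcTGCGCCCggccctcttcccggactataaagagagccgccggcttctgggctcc
MT2A held 7 matches and MT1X held 4. Of all 35116 windows of this length, 24.8% held at least 1 match, and of 6 windows of 5 compared genes of the list, 3 did. These 5 genes were MT2A, MT1X, MTF1, SLC30A1 and SLC39A10 (-0.46), so MT2A and MT1X were the only metallothioneins searched. These counts describe letters and measure no binding.

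Lists of the Wnt pathway, on which the study compared its knockouts, differed in their share of genes past the 2-fold minimum. Of all genes compared, 8.4% passed it. Among 28 genes of β-catenin, the destruction complex and the TCF factors, 14 were higher in the RCC2 KO column and 14 lower, none reached the 2-fold minimum, and the median was 0.0013. CTNNB1, the gene of β-catenin, was at 61.8 FPKM in the CD24 KO column and 67.3 FPKM in the RCC2 KO column (0.12). APC was at 11 and 12.9 FPKM (0.21), and AXIN2, also a target of the pathway, at 1.27 and 0.819 FPKM (-0.32). Of 7 antagonists compared, 3 were higher and 4 lower, with a median of -0.21 that was 0.33 when only genes at 1 FPKM or more in both columns were kept. Besides SFRP1, the antagonists past the 2-fold minimum were DKK1 and RNF43. DKK1, which blocks the LRP co-receptors, was at 34 and 112 FPKM (1.69). RNF43, which removes frizzled receptors, was at 1.09 and 3.53 FPKM (1.11), at a position that overlaps 5 other genes. Of 18 ligands and receptors, 6 were higher and 12 lower (median -0.13). The receptor kinase ROR1 was at 6.41 and 21.7 FPKM (1.62) and FZD7 at 3.60 and 1.21 FPKM (-1.06). Among 16 β-catenin targets, 9 were higher and 7 lower (median 0.09), and the 2 past the 2-fold minimum, BIRC5 and RNF43, are also in lists above. CCND1, cyclin D1, was at 109.8 and 181 FPKM (0.71), and CD44 at 86.8 and 47.7 FPKM (-0.85).

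Adhesion and EMT genes differed gene by gene. CDH1, E-cadherin of the epithelial junction, was at 52.6 FPKM in the CD24 KO column and 23.7 FPKM in the RCC2 KO column (-1.12), and CDH3, P-cadherin, at 111 and 48.2 FPKM (-1.19). VIM, vimentin, was at 545 and 605 FPKM (0.15), and CDH2, N-cadherin, was listed at 0 in both columns. Of 29 epithelial genes, 14 were higher and 15 lower (median -0.05), and the targeted gene CD24 is among the lower. Past the 2-fold minimum, ESRP2, an epithelial splicing regulator, was higher (3.75 and 8.60 FPKM, 1.02) and TJP3, of the tight junction, lower (-1.25). The position of TJP3 overlaps 11 other genes. Of 14 mesenchymal genes compared, 7 were higher and 7 lower, with a median of -0.14 that turned to 0.091 when both columns had to reach 1 FPKM. TAGLN, transgelin, was at 4.13 and 23 FPKM (2.23) and FN1, fibronectin, at 7.83 and 3.33 FPKM (-1.03). With quantile normalization no mesenchymal gene was at least 2-fold lower. Among 10 keratins, with a median of 0.05, the luminal pair KRT8 (1.22) and KRT18 (1.11), which share a position, passed the 2-fold minimum upward. KRT81 (3.17 and 0.827 FPKM, -1.19) passed it downward. With quantile normalization KRT8 alone passed it, and the median turned to -0.10. Of 30 integrins, laminins and collagens, 17 were lower (median -0.10), with ITGB1, the common integrin β1 chain, at 1019.9 and 609 FPKM (-0.74) and COL18A1 at 7.17 and 16.6 FPKM (1.11). Plasminogen and matrix proteases had a median of -0.05, and the 2 past the minimum were SERPINE2, a protease inhibitor, at 22.4 and 4.76 FPKM (-2.02), and MMP15 (-1.16). The S100 family held both a highest and a lowest gene of the comparison, with 4 of 12 members at least 2-fold higher, 3 at least 2-fold lower and a median of 0.71. That median was 0.36 without the filter and 0.39 with quantile normalization, which left 2 members at least 2-fold lower. S100A10, the light chain of the annexin A2 complex, was at 265 and 679 FPKM (1.35).

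Inflammatory and growth factor genes also differed member by member. Of 25 NF-kB cytokines and chemokines, 17 were higher in the RCC2 KO column (median 0.31). CSF2, the gene of GM-CSF, was at 0.328 FPKM in the CD24 KO column and 9.20 FPKM in the RCC2 KO column (2.94). It passed the filter in the RCC2 KO column only. LCN2, lipocalin, was at 46.1 and 116 FPKM (1.32). IL6 was at 46.3 and 11.6 FPKM (-1.90). SOD2, mitochondrial superoxide dismutase, was at 262 and 102 FPKM (-1.36), at a position that overlaps 6 other genes. Interferon-stimulated genes, with 13 of 28 higher, had a median of -0.07, and MHC class I genes, with 6 of 13 higher, one of -0.06 that turned to 0.12 when both columns had to reach 1 FPKM. In the former, STAT2 (23 and 10.2 FPKM, -1.09) and IFITM1 (1.93 and 0.353 FPKM, -1.11) were at least 2-fold lower, as were 4.34% of all genes compared. Of 24 BMP and TGF-β genes, 17 were higher (median 0.21). Among them were ID2, an inhibitor of bHLH factors, at 9.34 and 31.8 FPKM (1.67), and BMP4 (1.08). The BMP antagonist NOG, at 0.277 and 2.41 FPKM (1.42), passed the filter in the RCC2 KO column only. The protease gene BMP1 was at least 2-fold lower (-1.05). ERBB receptors and ligands had a median of 0.16 over 15 genes, -0.020 when both columns had to reach 1 FPKM. NRG4 (0.379 and 2.15 FPKM, 1.19) and NRG1 (3.98 and 1.16 FPKM, -1.21) passed the minimum in opposite directions. The YAP and TEAD list had no member past the minimum among 20 genes, beside 8.4% of all genes compared. In this list 13 were higher (median 0.08), and 8 after quantile normalization. Over the 5 prostate luminal genes compared, the median was -0.37. The 4 genes that the study names as predicted off-targets of the RCC2 sgRNAs ranged from -0.65 for CPNE2 (39.9 and 25.1 FPKM) to 0.45 for MAPKAPK3 (24.8 and 34.2 FPKM).

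Non-coding genes included the most extreme values. Of the genes compared, 51 were listed at 0 in 1 of the columns, 18 in the CD24 KO column and 33 in the RCC2 KO column, and 14 of the 51 had a protein-coding symbol. A 0 is given here as a listing and not as absence of the RNA, and no fold is printed against it. On the log2(FPKM + 1) scale all 51 passed the 2-fold minimum, and they are counted among the 515 higher and 551 lower genes. List counts also hold such genes, for example S100A12 (1.25 and 0 FPKM) and COL4A5 (1.61 and 0 FPKM). The vault RNA gene VTRNA1-3 was at 10295 FPKM in the CD24 KO column, 2.65% of its sum, and was listed at 0 in the RCC2 KO column. SCARNA22 (330.2 FPKM) and SNORA19 (267 FPKM), small RNAs inside introns of other genes, were listed at 0 in the RCC2 KO column in the same way. MIR622 (3921 FPKM) and SNHG25 (1384 FPKM) were listed at 0 in the CD24 KO column. These genes are short or lie inside other genes, and an FPKM value divides by that short length. Among non-coding genes above 0 in both columns, RNU6ATAC, an RNA of the minor spliceosome, was at 292 and 1583 FPKM (2.44), and TDRKH-AS1 was lowest, at 16.8 and 3.12 FPKM (-2.11). Genes without a protein-coding symbol were at least 2-fold higher for 3.97% and lower for 10.2% of 982 genes, against 4.06% and 3.85% of 11710 protein-coding genes.

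By chromosome, genes on chromosome 21 stood highest. Over 10184 genes with a mean of at least 3 FPKM, the median log2 difference was 0.079, and 20 of 23 chromosomes had a median above 0. Over all genes compared, 15 of the 23 had one. On chromosome 21, 84 of 103 genes (81.6%) were higher in the RCC2 KO column, with a median of 0.44. Chromosome 7 followed with a median of 0.19 over 484 genes. The lowest medians were -0.20 on chromosome 18 (152 genes) and -0.19 on chromosome 8 (358 genes), where 37.5% and 36% of genes were higher. The numbers of chromosome copies in the lines were not analysed here.

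**Figure D5:**
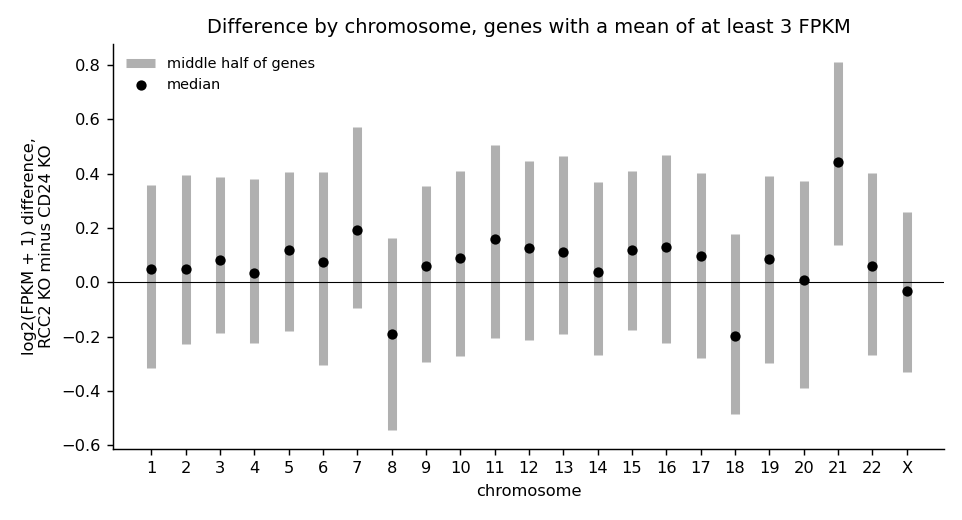
Log2(FPKM + 1) difference, RCC2 KO minus CD24 KO (vertical axis), of genes with a mean of at least 3 FPKM by chromosome (horizontal axis), with the median as a point and the range from the lower to the upper quartile as a grey bar. Chromosome 21 lies highest at 0.44, and chromosomes 18 and 8 lie lowest at -0.20 and -0.19.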

How the data were processed

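The authors deposited 1 table of FPKM values with 1 column per condition, and the columns for CD24 KO and RCC2 KO were used as scaled by the authors. The submitters' processing notes name HISAT, StringTie, Cufflinks and GATK, and their roles are not given in the sources used here. The labels name an RNA kit on total RNA, and the study's methods a stranded mRNA kit with paired-end sequencing. No build is named. For 24864 symbols with a single position in GENCODE 29 (GRCh38), 15.8% of the table's loci overlapped it, and the coordinates were read as hg19, with starts counted from 1.

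Genes with at least 1 FPKM in either column were compared as log2(FPKM + 1). A 2-fold minimum took the place of tests, which 1 value per condition does not allow. Lists were summarised by counts and medians, and chromosomes with at least 25 genes over genes with a mean of at least 3 FPKM. RefSeq gave the class of 98.4% of the genes compared. Of the genes past 2-fold, 37.3% overlap another row, against 33.5% of all compared. The members and lists were chosen with earlier results of these data known. Named were 11 genes of the study, the 15 highest and 15 lowest protein-coding genes and the 4 highest and 4 lowest others with at least 10 FPKM in 1 column and above 0 in both, up to 6 members per list past the minimum and 3 of highest level, and 6 genes listed at 0; other list members named were chosen after their values were seen. Some genes that this rule names are not reported here. Alternatives were other filters, pseudocounts, fold minimums, quantile normalization and centring. The calculations were tested on simulated data. Python 3.11.15, NumPy 2.4.6, pandas 2.3.3 and matplotlib 3.10.9 were used.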

Additional observations from a re-analysis of the deposited data

How the results depend on the processing

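The counts of 515 higher and 551 lower genes depended on the fold minimum, the pseudocount and the level of the genes kept. At a 1.5-fold minimum 1766 genes were higher and 1803 lower, and at 4-fold 38 and 44. A pseudocount of 0.1 gave 715 higher and 1113 lower genes, a share of 39.1% higher, and a pseudocount of 5 gave 237 and 143, a share of 62.4%, against 48.3% as reported. Without genes that overlap another row of the table, 315 genes were higher and 353 lower, and with a mean of at least 10 FPKM 361 and 174, a share of 67.5% higher that was the farthest from the reported one, which also moved the median of all genes to 0.14; both choices were made after the data were seen. Quantile normalization (440 and 513), median centring (481 and 577), no filter (515 and 551), 1 FPKM in both columns (469 and 376), no genes listed at 0 (497 and 518) and protein-coding symbols (476 and 451) left both counts within 1.5 times. Of 258 list medians, from 43 lists under 6 alternatives, 18 changed sign, 5 went to 0 and 16 moved by over 1.5 times and at least 0.1 with the same sign. With 1 FPKM in both columns the sign changed for Wnt antagonists (0.33), mesenchymal genes (0.091), ERBB genes (-0.020), MHC class I genes (0.12) and CDK inhibitors and arrest genes (0.0048). Quantile normalization changed it for aminoacyl-tRNA synthetases (-0.066), epithelial markers (-0.032), cytosolic ribosomal proteins (-0.15), YAP and TEAD genes (-0.10), keratins (-0.10), ER chaperones (-0.19), predicted off-targets (-0.079), epithelial junction genes (0.021) and the β-catenin core (-0.069). The core also changed sign with median centring and a pseudocount of 0.1, ER chaperones with median centring, and proteases (0.031) with no filter. Without the filter the medians of hypoxia (0.090), BMP and TGF-β (0.10) and prostate luminal genes (-0.0077) came close to 0, and those of histones, Wnt antagonists and mesenchymal genes reached 0, as genes under 1 FPKM entered. A pseudocount of 5 gave 0.39 for homologous recombination and -0.26 for histones, and quantile normalization -0.31 for NRF2 targets and -0.17 for CDK inhibitors and arrest genes. Quantile normalization also brought ALDOA, AURKB, NCL, HSPD1, PSMC3, FZD7 and IFITM1 under the 2-fold minimum. Of 304 named genes under 4 alternatives, 100 of 1216 values crossed the 2-fold minimum and none past it changed sign. Over all genes compared, chromosomes 1, 2, 14, 19 (-0.069) and 20 turned below 0. No paired analysis was possible because the table holds 1 column per condition, and for the same reason no library could be left out. The unknown depth limits genes near 1 FPKM most.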

Other observations

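Gene groups chosen after the values had been seen, and described without a test, extended the RNA and protein maturation genes that were higher in the column labelled RCC2 KO. Of 12 SR splicing factor genes, 10 were higher and 4 at least 2-fold (median log2 difference 0.56). SRSF3 was at 48.4 FPKM in the CD24 KO column and 131 FPKM in the RCC2 KO column (1.42), and SRSF7 at 36.6 and 79.6 FPKM (1.10), whereas SRSF4 was at 46.8 and 42.5 FPKM (-0.14). All 23 genes of hnRNP proteins and related RNA-binding proteins were higher, 8 at least 2-fold (median 0.76). HNRNPH1, which binds G-rich RNA, was at 126 and 421 FPKM (1.73), HNRNPM at 48.2 and 159 FPKM (1.70), and HNRNPLL at 18.9 and 19 FPKM (0.01). Several of these genes have processed pseudogenes or retained-intron transcripts, and the part of either in the values was not tested. Of 10 genes that methylate arginines of RNA-binding proteins or assist in it, 8 were higher (median 0.77), and PRMT5 was at 30.4 and 54.5 FPKM (0.82) beside its partner WDR77 at 2.48.

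The cytosolic chaperonin TRiC folds actin and tubulin, and all 8 of its subunit genes were higher (median 0.90), from CCT4 (156 and 232 FPKM, 0.57) to CCT6A (112 and 281 FPKM, 1.32). Tubulin genes followed for 9 of 12 members, 6 at least 2-fold (median 0.89). TUBA1C was at 236 and 729.5 FPKM (1.63) and TUBA1B at 409 and 1148 FPKM (1.49), while the log2 difference of TUBA1A was -0.26. The complement genes ran the other way, with 9 of 10 compared genes lower in the RCC2 KO column and 3 at least 2-fold lower (median -0.86). Beside C1S, the protease gene C1R was at 20.3 and 4.52 FPKM (-1.95) and C1RL at 27.1 and 11 FPKM (-1.23). SERPING1, their inhibitor, was at 59.9 and 33.1 FPKM (-0.84), and CD59, a membrane inhibitor of the terminal complex, at 19.2 and 25.7 FPKM (0.40). Over all genes compared, the medians of the level classes ran from -0.25 to 0.22, and the part of the level in these differences was not tested.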
